A study of Drosophila melanogaster with 3 samples.

Results

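The peaks described here are the OdsH-GFP binding sites whose summit fell inside an annotated exon and away from any promoter. From the authors' reproducible peak set on genome build dm6, which holds 8700 peaks, those were taken whose summit lay in a 5′ UTR, a coding sequence (CDS), a 3′ UTR or an exon of a noncoding RNA, and more than 500 bp from every annotated transcription start site (TSS). There were 221 such peaks, 2.54% of the set (Clopper-Pearson 95% interval 2.22 to 2.89%). They comprised 44 peaks in 5′ UTRs, 11 in CDS, 64 in 3′ UTRs and 102 in noncoding exons. The rule used position only, so peak strength and replicate support were free to vary. Base composition was only partly free, since the exon classes differ in it. Beyond promoters, G and C made up 53.4% of coding bases and 35.2% of 3′ UTR bases.

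The chromatin came from whole white prepupae of *Drosophila melanogaster*, mixed in sex and of unknown age beyond that stage, from 1 transgenic strain, OdsH-GFP, that stably carried OdsH joined to GFP at its C terminus. Sonicated chromatin was pulled down through the GFP tag, and there were 3 biological replicates of this single group. Animals without the transgene, other stages and treatments were not analysed here, and the tissue or cells in which the fusion protein was made are not stated in the labels. Whole animals mix all tissues, so a peak present in few cells and a weak peak present in many cannot be told apart.

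OdsH is a homeodomain protein of the paired class, and homeodomains recognise short AT-rich words built on TAAT. Sites for such factors are usually looked for in promoters, introns and intergenic enhancers. Coding exons carry the genetic code and are rich in G and C, 3′ UTRs are AT-rich and end at the site of transcript cleavage, and long noncoding RNAs (lncRNAs) have exons without a reading frame. The white prepupa marks puparium formation, when the steroid hormone ecdysone starts metamorphosis.

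The sequences under the summits show the range of base composition. Shown are 30 bases around the summit of the 4 strongest peaks of each class, or the 3 strongest in 3′ UTRs, among those on X, 2L, 3L, 3R and 4, read from the RefSeq sequence of the release 6 assembly on the strand of the host gene, with every G and C in capitals. In noncoding exons these were
lncRNA:CR46035 (chr3R:17704404-17704433): tGatCaaGtCaCtCatCaaaaGaCtGaaCt
lncRNA:Vinr (chrX:12751317-12751346): aaattttGatatatGCCaatCCCttaCatG
lncRNA:CR44619, first exon (chrX:12752354-12752383): CGaaatttGaaGaaaataCaaaaaaatatC
lncRNA:CR44619, last exon (chrX:12754514-12754543): aaCtataCCataaaaCaaattaaGaaaaGC

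In CDS the same choice gave sequences rich in G and C:
Pde1c (chr2L:11816568-11816597): tGaGCCaGCtGCGGaGCCGGCaGatGGCGC
klar (chr3L:506240-506269): aCCttGGGtCtGGGttCGtCtGGCaaaGaC
CG10357 (chr3L:3616504-3616533): taatGGaGCGCCaCCCtaCGGCCaGGGCaG
Ubr1 (chrX:16967593-16967622): CaGttCGCCGCtCaaGGaGtGGCGCCtCaa

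In 3′ UTRs the windows held more A and T than G and C:
Ance-3 (chr2L:13955915-13955944): aGtaGattCaGaCaCCtaCtCGaaaCatta
Cals (chr4:1113318-1113347): aataaaaCaaaGCatattGCaGCaGttttt
CG7872 (chrX:15579790-15579819): aCGCCaCattCGCGtGtttCCtaaCtaaCt

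In 5′ UTRs they were:
firl (chr2L:12065885-12065914): aGaaGtGttGaGtttatttCtaaGCaattt
Raf (chrX:2296296-2296325): CttaaaGtCaaaatCttaCaaatCGCaGta
eas (chrX:16279524-16279553): GCataattCCGatttaaaattGCCtttGat
cic (chr3R:20253322-20253351): tGaGGCaGGGCtttttGCtttGCttaCtCC

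Of these 30 bases, 6 to 11 were G or C at the 4 noncoding summits, 17 to 22 at the 4 CDS summits, 8 to 14 at the 3 3′ UTR summits and 8 to 15 at the 4 5′ UTR summits. Among the windows shown, those in CDS therefore did not overlap those of the other classes in G and C content. Over all 221 peaks the classes did overlap. In 101 bp at the summit, G and C content ran from 36.6 to 68.3% in CDS and from 15.8 to 58.4% in 5′ UTRs. It ran from 19.8 to 61.4% in 3′ UTRs and from 17.8 to 69.3% in noncoding exons.

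Exons as a whole held few peaks for their length, with 1 exception. Exonic bases beyond 500 bp of a TSS made up 19.8% of the 6 chromosome arms and held 2.54% of the summits, a ratio of 0.129. Among the 8700 strongest peaks of each replicate the same share was 2.34, 2.62 and 2.55% in replicates 1, 2 and 3, or 2.51% ± 0.144 (SD, n = 3). Noncoding exons stood apart from the other exon classes: they made up 0.797% of bases and held 1.17% of summits (interval 0.957 to 1.42%), a ratio of 1.47.

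The density of summits in noncoding exons was 95.6 per Mb, against 76.8 per Mb in introns beyond promoters, 49.1 per Mb between genes and 145 per Mb within 500 bp of a TSS. The 3 replicates gave ratios of 1.18, 1.40 and 1.51 for noncoding exons, against 1.12, 1.15 and 1.13 for introns. Noncoding exons were thus above introns in each replicate, by the least in replicate 1. The ratios for noncoding exons rest on 82, 97 and 105 summits in replicates 1, 2 and 3. Counting error was not computed for them, so no difference from introns is claimed for replicate 1. All 102 noncoding peaks lay in genes annotated as noncoding RNA, 98 of them lncRNA and 4 antisense RNA genes, and pseudogenes, with 87.1 kb of such exons, held 0. Noncoding exons and introns are not fully separate places. Of the 102 summits, 26 also lay within a protein-coding gene, 18 of them on the strand opposite to it. At 29 of the 102 the base is exonic in only part of the transcripts that span it. The same shares over noncoding exon bases were not computed.

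Coding sequence was nearly empty. It made up 13.7% of bases and held 0.126% of summits (11 peaks; interval 0.0631 to 0.226%), a ratio of 0.0092, or 0.598 peaks per Mb. The replicates' own lists held 14, 13 and 16 CDS summits. The 3′ UTRs had a ratio of 0.166 in the reproducible set and 0.170 ± 0.0105 over the replicates, and the 5′ UTRs had 0.649 in that set and 0.644 ± 0.186 over the replicates (SD, n = 3 each). Counts for 5′ UTRs were the least even, with 42, 57 and 32 summits in replicates 1, 2 and 3.

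**Figure D1:**
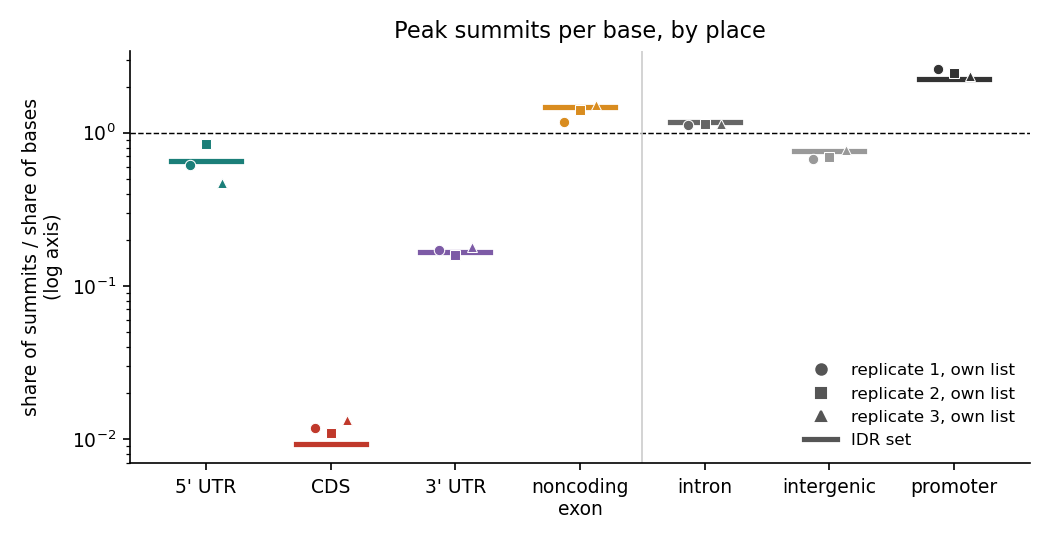
Share of peak summits divided by the share of assembled bases (log axis, dashed line at 1) for the 4 exon classes beyond promoters (left of the grey line) and for introns, intergenic bases and promoters; horizontal bars are the reproducible (IDR) set and symbols are the 3 replicates' own 8700 strongest peaks. Noncoding exons sit above 1 in all 3 replicates and CDS near 0.01.

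The contrast between exon classes depended on peak strength in the pooled list of 30000 rows, from which the 8700 peaks are the strongest. Noncoding exons held a nearly constant share from top to bottom, 1.09% of the 1740 strongest peaks, 1.32% of ranks 6961 to 8700, 1.09% of the next 8700 rows and 1.25% of the last 12600 rows. CDS held 0.0575% of the 1740 strongest peaks and 1.33% of the last 12600 rows, which lie below the authors' reproducibility threshold. The 3′ UTR share also grew, with 0.517% of the 1740 strongest and 2.25% of the last 12600 rows.

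The number of genes with a peak followed the same order. Of the 1609 noncoding genes with any exonic base beyond 500 bp of a TSS, 87 (5.41%) hosted at least 1 peak. For 5′ UTRs the count was 42 of 2886 genes (1.46%), for 3′ UTRs 61 of 11168 (0.546%) and for CDS 11 of 12260 (0.0897%).

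Strength was next compared with that of the other peaks beyond promoters, which lie in introns or between genes. In the reproducible set the authors' signal value, which ranks peaks within 1 list and has no unit, ran from 77.6 to 2209.95 over the 221 exonic peaks with a median of 128. The medians were 148 in noncoding exons, 124 in 3′ UTRs, 110 in CDS and 106 in 5′ UTRs, against 149 in introns, 134 between genes and 178 at promoters. Noncoding exon peaks thus had about the median of intronic peaks, and the other 3 exon classes had lower medians in that set.

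In each replicate's own signal values the exonic peaks had medians of 36.7, 57.6 and 41.6, against 40.6, 66.3 and 46.0 for the other peaks beyond promoters. Each peak took the value of the strongest replicate row overlapping it, so neighbouring peaks can share a row. Peaks without a row were left out. In replicate 3, 210 of the 221 exonic peaks had a row, against 5750 of the 5849 others. The exonic median was lower in 3 of 3 replicates, with a mean difference of -5.68 ± 2.64 (SD, n = 3; exact sign-flip permutation test over replicates, two-sided, p = 0.25, the smallest p that 3 replicates allow). For noncoding exons alone the difference was -1.33 ± 2.57 and was not of 1 sign (-2.38, -3.21 and 1.60; exact sign-flip p = 0.50). The 5′ UTR peaks differed by -5.36, -15.3 and -14.4 and the 3′ UTR peaks by -4.005, -13.1 and -7.53, lower in 3 of 3 replicates for both at the same smallest p of 0.25 in the exact test. For CDS peaks the difference was not of 1 sign (-5.32, 5.84 and -11.2; exact sign-flip p = 0.75).

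**Figure D2:**
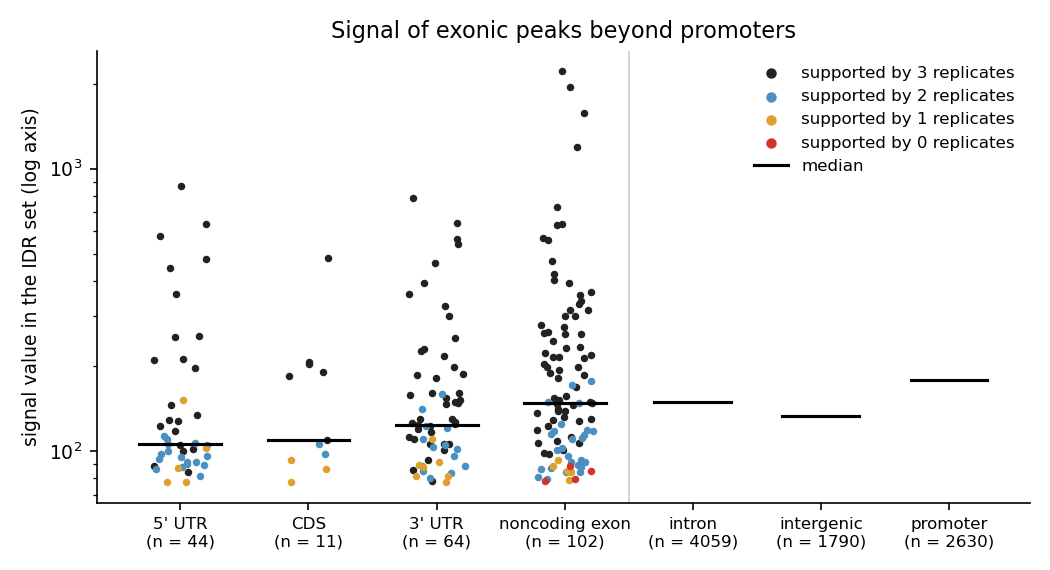
Signal value in the reproducible set (log axis) of each of the 221 exonic peaks by class, coloured by the number of replicates whose 8700 strongest peaks overlap it; black bars are medians, also shown for intronic, intergenic and promoter peaks. The 4 strongest peaks are in noncoding exons, between 1195 and 2209.95, and the CDS peaks lie between 77.7 and 207 but for *otp* at 484.

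A peak was called supported by a replicate where at least 1 bp overlapped 1 of that replicate's 8700 strongest rows. All 3 replicates supported 138 of the 221 peaks (62.4%; interval 55.7 to 68.8%), against 71.0% of all 8700 peaks. By class these were 67 of 102 in noncoding exons, 43 of 64 in 3′ UTRs, 6 of 11 in CDS and 22 of 44 in 5′ UTRs. With the 8700 peaks cut by strength into 5 classes of 1740, the exonic share was higher than that of the other peaks in the first and second classes and lower in the rest. In the strongest class 35 of 35 exonic peaks were supported by all 3, against 98.9% of the other peaks, and in the second class 38 of 38, against 96.8%. In the third class 28 of 35 were, against 1534 of 1705 other peaks, which was the widest gap. In the fourth class the shares were 54.5%, against 56.3%, and among the weakest 12.1%, against 13.1%. The 4 peaks that no replicate supported were all in noncoding exons and had signal values of 78.0 to 88.8.

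The strongest exonic peak lay in lncRNA:CR46035 on 3R (peak 17704201 to 17704660, summit 17704419), a single-exon lncRNA on the opposite strand to *osa*, which encodes a subunit of the Brahma chromatin remodelling complex. Its signal value was 2209.95, rank 12 of 8700, and its values in replicates 1, 2 and 3 were 547, 972 and 695, at ranks 14, 11 and 13 of their lists. The rank was therefore nearly the same in each replicate. The summit lay 724 bp from the start of the lncRNA. Of the 7 annotated transcripts that span it, it is exonic in 1, and it is intronic in *osa*.

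The next 3 strongest exonic peaks were neighbours on X, in the overlapping genes lncRNA:Vinr and lncRNA:CR44619, between 535 bp before and 2662 bp after the start of CR44619. The Vinr summit (12751332) had a signal value of 1943 and replicate values of 528, 687 and 647. The first of the CR44619 summits (12752369) had a signal value of 1569 and replicate values of 390, 678 and 499. It is also the exonic peak nearest the 500 bp limit, at 502 bp from a TSS, while the nearest exonic peak outside the set was a 5′ UTR summit on X at 498 bp with a signal value of 103. The second CR44619 summit (12754529) had 1195 in the reproducible set and 265, 527 and 408 in the replicates, and lay 42 bp from the annotated end of the transcript. All 3 peaks ranked within the strongest 132 rows of every replicate's list.

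lncRNA:CR44468 on 2R (summit 18806825, signal value 729) followed among noncoding peaks, with replicate values of 194, 345 and 192. Its summit had 25.7% GC, against 53.0% in windows 500 bp to either side.

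Several of the noncoding hosts contain microRNA hairpins. Of the 87 noncoding host genes, 8 (9.20%) contain an annotated microRNA hairpin on the same strand, and 15 of the 102 peaks lie in them; of all 1609 noncoding genes with such exonic bases, 33 (2.05%) contain one. The 8 carry *mir-ban* (lncRNA:CR43334), *mir-8* (lncRNA:CR43650), *mir-276b* (lncRNA:CR46004), *mir-276a* (lncRNA:CR46006), *mir-282* (lncRNA:CR43626), *mir-375* (lncRNA:CR45345), *mir-279* with *mir-996* (lncRNA:CR31044), and *mir-13a*, *mir-13b-1* and *mir-2c* (lncRNA:CR45911). The share was not adjusted for gene length.

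lncRNA:CR43334, on 3L from 628435 to 643900, is the host of *mir-ban*, the bantam microRNA that promotes growth and represses the cell death gene *hid*. It held 5 exonic peaks, more than any other gene, and all 5 were supported by all 3 replicates. Their signal values from the start of the gene onwards were 146, 316, 404, 566 and 631, so these 5 grew along the transcript. All 5 lay before the hairpin at 642208 to 642288. The strongest (summit 640773, 1435 bp before the hairpin) had replicate values of 153, 289 and 179, and the weakest (summit 630260) had 52.6, 57.9 and 38.4. The 3 between them had replicate values of 70.9, 143 and 106 (summit 633731), 141, 146 and 129 (summit 634848), and 147, 279 and 132 (summit 636633). The order of the 5 was the same in each replicate. The rise did not continue past the hairpin. A peak there, 14233 bp from the gene start and within 500 bp of a TSS, had a signal value of only 164 and was supported by all 3 replicates. A further intergenic peak beyond the gene's end had a signal value of 623.

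**Figure D3:**
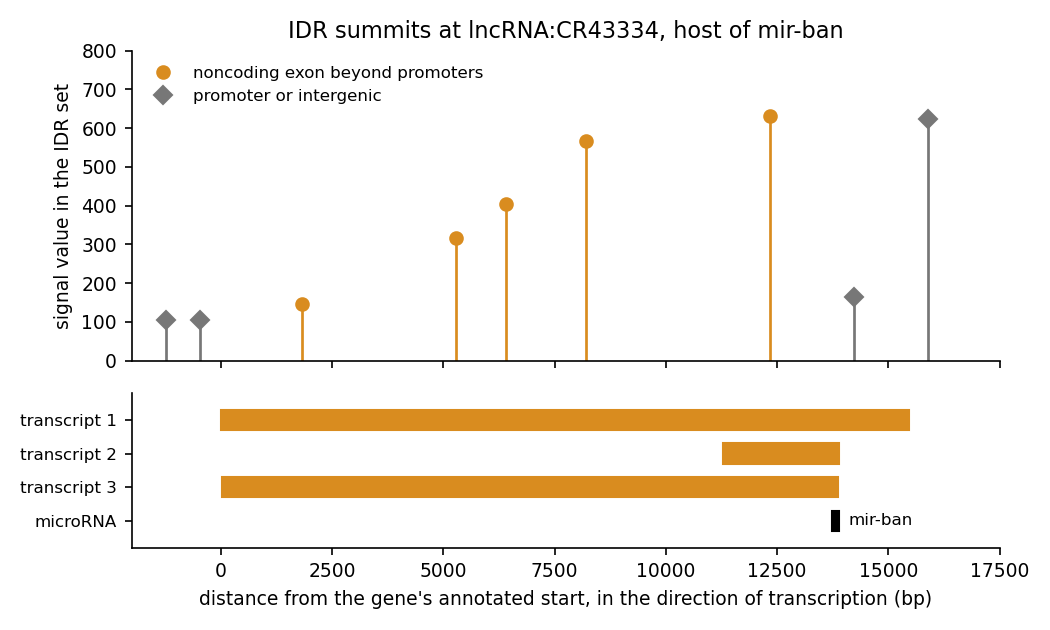
Peak summits at lncRNA:CR43334, by distance from the annotated gene start in the direction of transcription; height is the signal value in the reproducible set, orange circles are exonic peaks beyond promoters and grey diamonds other peaks, with the 3 annotated transcripts and the *mir-ban* hairpin below. The 5 exonic peaks have signal values of 146, 316, 404, 566 and 631 from left to right.

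lncRNA:CR43650 on 2R, the host of *mir-8*, which acts in growth through insulin signalling, held 3 exonic peaks. They lay 4982 to 7044 bp past the hairpin and had signal values of 178, 316 and 300.1. The host of *mir-276b* held 2 peaks, with signal values of 279.7 and 193. The remaining microRNA hosts held 1 peak each, from 93.3 in the *mir-279* host to 168 in the *mir-375* host.

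In 5′ UTRs the strongest peaks were in *Fbl6*, *firl*, *Raf*, *eas*, *cic*, *spen*, *Mef2*, *Nup153*, *cbt* and *JIL-1*, and all 10 were supported by all 3 replicates. *Fbl6* (2R, summit 11289254) had a signal value of 869.8 and replicate values of 200.4, 359 and 304. *Raf*, a kinase between Ras and the MAP kinases, had 576 with replicate values of 154, 233 and 182. *cic*, which encodes the repressor Capicua that receptor tyrosine kinase signalling relieves, had 443 with replicate values of 140.1, 189 and 112. *spen*, a transcriptional corepressor, *Mef2*, a muscle transcription factor, and *JIL-1*, a histone H3 kinase, had signal values of 359.97, 256 and 210.4.

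Most 5′ UTR peaks lay just outside the promoter limit: 31 of 44 (70.5%) were 501 to 1000 bp from a TSS. The share was 40.7% over all 221 exonic peaks, 45.1% in noncoding exons, 45.5% in CDS and 12.5% in 3′ UTRs. The share of 5′ UTR bases at that distance was not computed, so an excess over it was not tested. The host's own start was usually the nearest, with 4 exceptions. In 31 of 44, at least 1 annotated transcript that spans the summit, of the host or of an overlapping gene, has an intron there, so the base is exonic in part of the transcripts only. Over all 221 exonic peaks that was so for 81, and the share over 5′ UTR bases was not computed. *baz*, which encodes the polarity protein Par-3, was different: it held 3 peaks in 1 internal 5′ UTR exon, 4604 to 7250 bp from the nearest TSS of any gene. Their signal values were 107, 128 and 117, and 2 of 3 were supported by all 3 replicates.

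In 3′ UTRs the 10 strongest peaks were in *Ance-3*, *Cals*, *CG7872*, *CG33307*, *stas*, *by*, *NetB*, *Lsd-2*, *CG14440* and *REG*, and all 10 were supported by all 3 replicates. *Ance-3*, a relative of angiotensin-converting enzyme (2L, summit 13955930), had a signal value of 788 and replicate values of 216, 357 and 212. *Cals*, which encodes Calsyntenin (chromosome 4, summit 1113333), had 639.5 with replicate values of 178, 273 and 176, and lay 9632 bp from the nearest TSS. *NetB*, an axon guidance ligand, had 359 with replicate values of 105, 163 and 95.6 and lay 9704 bp from the nearest TSS. *Cals* and *NetB* were among the 10 of 64 3′ UTR peaks at over 5000 bp from any annotated TSS. *Ance-3* was not, at 1609 bp from the nearest TSS, that of *NimA*.

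*Lsd-2*, which encodes a perilipin of lipid droplets, *Inx2*, a gap junction protein, and *Ppa*, an F-box protein, each held 2 3′ UTR peaks, and in each gene the pair overlapped and merged into 1 region. Such pairs are not independent, since the same replicate rows support both. Over all 221 peaks, 24 overlapped another peak (10.9%, against 9.53% of all 8700), and merging left 215 regions in 199 genes.

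The CDS peaks lay in *otp*, *Pde1c*, *klar*, *CG10357*, *Ubr1*, *CG1632*, *su(w[a])*, *sgg*, *l(3)mbn*, *Snx27* and *CG6678*. The strongest was in *otp*, itself a homeobox gene (2R, summit 20884586), with a signal value of 484 and replicate values of 111, 207 and 166. *Pde1c*, a cyclic nucleotide phosphodiesterase (2L, summit 11816583), had 207 with replicate values of 52.7, 85.8 and 69.0, and *klar*, which acts in nuclear positioning (3L, summit 506255), had 203 with replicate values of 56.7, 73.6 and 66.1. The 5 strongest CDS peaks and *CG1632* were supported by all 3 replicates. The remaining 5 had signal values of 77.7 to 106.

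The summit is exonic in every annotated transcript that spans it for 9 of the 11 CDS peaks, *sgg*, the fly GSK3, and *su(w[a])*, a splicing regulator, being the exceptions. In *otp*, *Pde1c*, *klar*, *CG10357* and *Ubr1* the summits of all 3 replicates were in the CDS as well. In *CG1632* and *l(3)mbn*, whose summits lay 29 and 6 bp from the edge of the exon, the summit of replicate 1 fell in the intron.

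Base composition also differed between the classes on average, with overlapping ranges. GC content in 101 bp at the summit averaged 35.3% over the 221 peaks, against 43.1% in windows of the same length 500 bp to either side, and 165 of 221 summits (74.7%) were lower in GC than their flanks, against 85.4% of all 8700. On each replicate's own list the exonic summits averaged 35.6% ± 0.222 and their flanks 42.7% ± 0.197 (SD, n = 3), lower in 3 of 3 replicates (difference -7.12 percentage points, exact sign-flip permutation p = 0.25, the smallest possible).

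Noncoding exon summits averaged 32.2% GC, against 44.4% in the flanks and 42.0% over all bases of the class. That is close to the 31.3% at intronic summits: on the replicates' own lists the difference from introns was 0.423 ± 0.461 percentage points (SD, n = 3; exact sign-flip p = 0.50). The 3′ UTR summits averaged 34.3%, against 40.9% in their flanks, while 3′ UTR bases over the whole annotation average 35.2%. The 5′ UTR summits averaged 39.2%, against 43.3% in the flanks.

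CDS summits went the other way. They averaged 55.1% GC, against 42.2% in the flanks and 53.4% over all coding bases, and 8 of 11 were higher in GC than their flanks. In the replicates' own lists the CDS summits averaged 48.2, 52.2 and 55.6%, against 44.5, 40.7 and 43.6% in their flanks, so the summit was higher in 3 of 3 replicates (difference 9.07 ± 4.71 percentage points, SD, n = 3; exact sign-flip p = 0.25, the smallest possible). The strongest, *otp* and *Pde1c*, had 63.4 and 68.3% at the summit, against 38.1 and 39.6% in their flanks. The class is small, and its mean rests on 11 peaks in the reproducible set. Both flanks lie beyond the exonic stretch around the summit in *klar* (252 bp), *Ubr1* (367 bp), *CG10357* (206 bp) and *l(3)mbn* (63 bp). In *otp*, *Pde1c* and *CG1632* the nearest edge of the stretch is 175, 123 and 29 bp from the summit, so at least 1 flank lies beyond it. In *sgg* and *su(w[a])* the nearest edge is 795 and 641 bp away, beyond the flanks. The restriction to CDS therefore partly sets this contrast, also in the 2 strongest peaks.

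**Figure D4:**
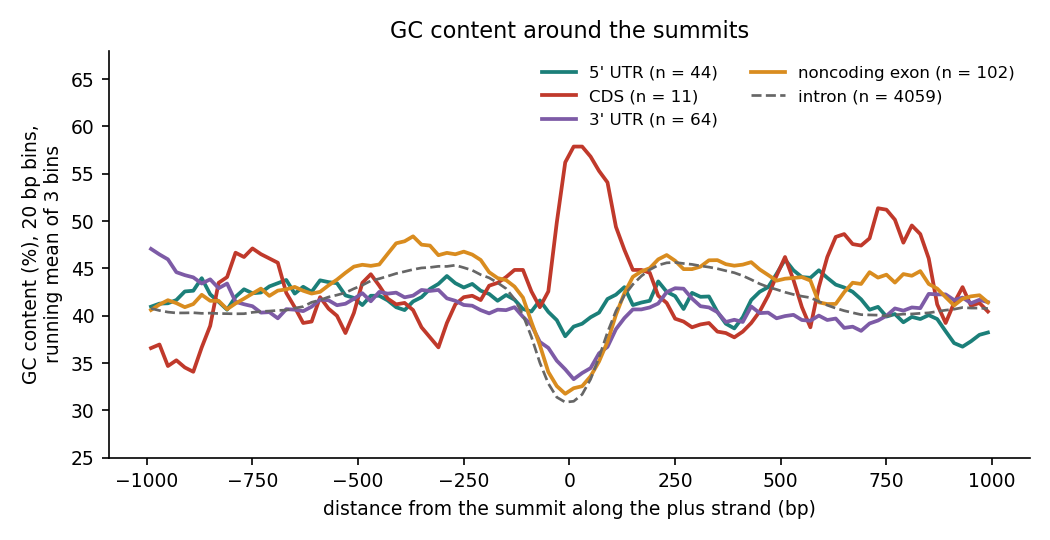
Mean GC content in 20 bp bins (running mean of 3 bins) by distance from the summit along the plus strand, for the 4 exon classes and for intronic peaks (dashed). Noncoding exons dip at the summit like introns, 3′ UTRs dip less, 5′ UTRs least, and CDS peaks rise. Before the running mean, the CDS value was 60.0% in the bin centred 10 bp from the summit, so the drawn curve peaks lower.

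Short words were searched on both strands within 50 bp of the summit. TAATTA, the palindromic core word of many homeodomains, occurred at 17 of 221 summits (7.69%; interval 4.54 to 12.0%), against 10.8% of all 8700. The replicates' own lists gave 9.02% ± 1.99 for exonic summits and 10.4% ± 0.185 for all (SD, n = 3), a difference within the spread between replicates. The 17 included *Cals*, *cic*, lncRNA:CR44365, lncRNA:CR44831 and 1 of the 5 peaks of lncRNA:CR43334, but none of the 4 strongest peaks and none of the 11 in CDS.

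TAATTG occurred at 7.69% of the 221, against 11.5% of all 8700, and TAAT followed after 3 bases by ATTA at 1.36%, against 1.75%. TATCGATA occurred at 0 of 221 (interval up to 1.66%), against 0.701%. Promoter peaks, which the rule leaves out, carried most of the latter. The share was 1.90% at promoters, 0.148% in introns and 0.279% between genes. AGATAAG occurred at 0.905%, against 1.67%. GAGAGAG and CAGGTA occurred at 2.71% each, against 1.14% and 1.77%. AATAAA, which is also the polyadenylation signal, occurred at 28.5%, against 33.0%, and AAAAAA at 32.6%, against 30.1%. For TAATTG and AATAAA the value over all peaks lay inside the interval of the exonic peaks (4.54 to 12.0% and 22.7 to 34.9%), as it did for the other words. On the replicates' own lists TAATTG occurred at 9.80, 6.58 and 7.21% of exonic peaks, against 11.1, 11.3 and 11.3% of all peaks, or 7.86% ± 1.71 against 11.2% ± 0.119 (SD, n = 3 each), lower in 3 of 3 replicates by more than the spread between them. The gaps for AATAAA (28.8% ± 2.34 of exonic peaks against 32.2% ± 0.399 of all), AAAAAA (34.4% ± 1.37 against 30.1% ± 0.866) and GAGAGAG (1.99% ± 0.197 against 1.10% ± 0.206, SD, n = 3 each) were also of 1 sign in 3 of 3 replicates and wider than that spread. The spread between replicates does not cover the error of counting few peaks, so no difference is claimed for these words. GAGAGAG, for 1, occurred at 6 of 221 summits, and its interval of 1.00 to 5.82% holds 1.14%.

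Many noncoding peaks lay at transcript ends. Of the 102 noncoding exon summits, 37 (36.3%; interval 27.0 to 46.4%) lay within 100 bp of an annotated transcript end, where 14.0% of the bases of that class lie. The replicates' own lists gave 31.7, 32.0 and 33.3%, so the excess over 14.0% was larger than the spread between replicates. It narrowed with distance: within 250 bp the share was 47.1%, against 29.6% of bases, and within 500 bp 52.9%, against 46.5% of bases.

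The 3′ UTR peaks followed the ends of their genes more loosely. Within 100 bp of an end lay 23 of 64 (35.9%; interval 24.3 to 48.9%), against 25.5% of 3′ UTR bases, and within 500 bp 73.4%, against 68.7% of bases. The base share at 100 bp lies inside the interval of the reproducible set, while the replicates' own lists gave 32.6% ± 1.93 (SD, n = 3). Counting all exonic peaks, 105 of 221 (47.5%) lay within 500 bp of some transcript end, against 10.4% of all 8700, a contrast that the restriction to exons partly sets.

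**Figure D5:**
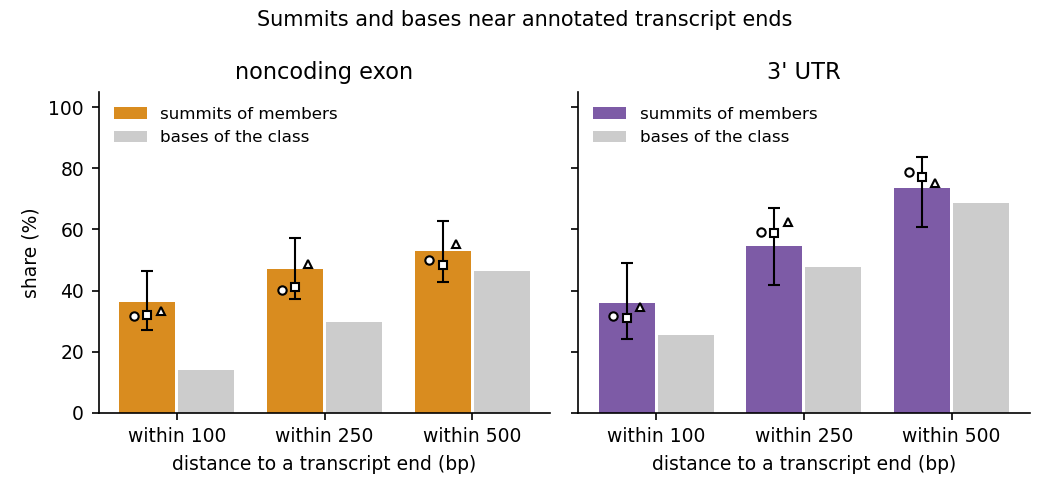
Share of peak summits (coloured bars, with Clopper-Pearson 95% intervals; open symbols are replicates 1 to 3 as circle, square and triangle) and share of all bases of the class (grey bars) within 100, 250 and 500 bp of an annotated transcript end, for noncoding exons and 3′ UTRs beyond promoters. The widest gap is in noncoding exons within 100 bp, 36.3% of summits and 14.0% of bases.

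Noncoding summits within 100 bp of an end included lncRNA:CR44363 (3L, signal value 639, 40 bp from the end), lncRNA:CR46444 (2R, 366, 1 bp) and lncRNA:CR44854 (2L, 332, 3 bp). Their summit lay so near the edge of the exon that part of each peak is outside the transcript. Over the 221 peaks the median distance from the summit to the nearest exon edge was 310 bp, 41 summits lay within 50 bp of an edge, and 136 peaks were exonic over their whole length.

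Since summits move between replicates, a peak near an edge can change class. Of the 207 exonic peaks with an overlapping row in all 3 replicate lists of 30000 rows, 175 (84.5%; interval 78.9 to 89.2%) had an exonic summit in each. Over all peaks with such rows, 96.3% kept the same status, exonic or not, in all 3. The median shift of the summit was 15.5, 14 and 19 bp in replicates 1, 2 and 3.

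The X chromosome held more of these peaks than its share. It carried 67 of 221 (30.3%), against 19.2% of all 8700 peaks and 19.1% of exonic bases beyond promoters. The replicates' own lists gave 27.0, 26.3 and 28.8%, or 27.4% ± 1.31 (SD, n = 3). The excess lay in the classes of protein-coding genes: X held 27 of 64 3′ UTR peaks (42.2%, against 23.5% of 3′ UTR bases), 17 of 44 in 5′ UTRs (38.6%, against 21.9%) and 5 of 11 in CDS (45.5%, against 17.8%). In noncoding exons it held 18 of 102 (17.6%, against 15.0% of bases).

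For 3′ UTRs the X share was 39.4, 36.1 and 36.2% in the replicates, above 23.5% in 3 of 3 by more than the spread between them. For 5′ UTRs it was less even, at 26.2, 26.3 and 40.6%. The X-linked 3′ UTR hosts included *NetB*, *Lsd-2*, *Inx2*, *eas*, *rst*, *Ptp4E* and *ctp*. Per the deposited file lists, the same control alignment served every replicate, and its part in the X share was not tested.

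Of the gene lists examined, 28 ecdysone and metamorphosis genes matched the annotation and 3 hosted an exonic peak: *EcR*, the ecdysone receptor, *Hr3*, a nuclear receptor it induces, and *cbt*, an early response transcription factor. Over all 13945 protein-coding genes 112 (0.803%) did. Neither this comparison nor the counts of the other lists were adjusted for gene or exon length. *EcR* had a 5′ UTR summit with a signal value of 100.4 and replicate values of 28.2, 58.3 and 15.2. *Hr3* had a 3′ UTR summit of 111, with 45.1 and 39.7 in replicates 1 and 2 and no row in replicate 3. *cbt* had a 5′ UTR summit of 211 with replicate values of 70.2, 105 and 30.6.

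Of 28 RNA-binding regulators 1 hosted a peak (*Syp*), of 30 signalling genes 1 (*wts*, the Hippo pathway kinase) and of 37 homeobox genes 1 (*otp*). *Syp* and *wts* had 5′ UTR summits with signal values of 93.9 and 110.3. Of the 6 list hosts, *cbt* and *otp* were supported by all 3 replicates, and the other 4 by 2 of 3.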

How the data were processed

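The authors deposited peak lists in narrowPeak layout for each of the 3 replicates, for their pool and as 1 reproducible set chosen by irreproducible discovery rate (IDR), per the file names. Column 7 of the deposited lists is the peak caller's signal value, compared only within a list. Column 9 of the deposited lists, the −log10 q-value, sat at its highest value in 90.0% of IDR rows and ranked nothing. The aligner, peak caller, versions and depth are not given in these sources, so depth is unknown and intervals cover counting error only. Lists on build dm3 were not used here.

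Summits on dm6 (1-based) were placed on per-base masks of Ensembl release 115 (BDGP6, no transposable elements, 6 arms). Where classes overlap, 5′ UTR came before CDS, 3′ UTR and noncoding exon. No sequence from arm 2R is shown. Each replicate was represented by its 8700 strongest rows of 30000. Every peak of a replicate shares its library, so no test was run over peaks. The exact sign-flip test over 3 replicates cannot go below p = 0.25. Flanks are 101 bp windows 500 bp to either side. Genes were named as hosts of every CDS peak, of the 10 strongest peaks of each UTR class and the 5 strongest noncoding peaks, of 2 or more peaks, or from a gene list; others were named after their values were seen. Of the list symbols, *Eip55E*, *Eip71CD*, *nos*, *Pabp* and *Dl* matched no gene. The members, lists and words were chosen with earlier results of these data known. Overlap, distance, word and class rules were tested on simulated data. Scripts used Python 3.11.15, numpy 2.4.6, pandas 2.3.3, scipy 1.17.1 and matplotlib 3.10.9. Promoter distance, peak position and strength, transcripts counted, overlap rule, windows and each replicate were varied. The comparisons of noncoding exon density, X share, transcript-end bases and microRNA hosts were added after the data were seen.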

Additional observations from a re-analysis of the deposited data

How the results depend on the processing

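No paired analysis was possible because the labels give 1 group of 3 replicates and no second group. No alternative reversed a difference. The share of exonic summits beyond promoters, 2.54%, became 3.79% with a TSS limit of 250 bp, 1.51% with 1000 bp, 1.95% in the 4350 strongest peaks, 2.23% among peaks that all 3 replicates supported, 1.43% with transcripts of protein-coding genes only and 1.61% where the summit had to be exonic in every spanning transcript. Among peaks supported by all 3 replicates the class counts were 22 in 5′ UTRs, 6 in CDS and 67 in noncoding exons. With protein-coding genes only, no noncoding exon peak remains by construction. Support by all 3 replicates, 62.4%, was 44.8% with 50% reciprocal overlap (48.9% of all peaks) and 91.4% with replicate lists of double length (94.2%). Without each replicate in turn, when only the remaining replicates had to support a peak, it was 68.3 to 73.8% (75.6 to 78.7% of all peaks). TAATTA within 100 bp occurred at 14.0% of exonic and 18.1% of all summits, and within 25 bp at 5.43 and 5.59%. The share near the host's own transcript end, 42.1% within 500 bp, was 33.9% within 250 bp and 54.8% within 1000 bp. The share of peaks with exonic summits in the replicates was 87.2 to 90.9% without each in turn. The ratio of 1.47 for noncoding exons ranged from 1.36 to 1.52 under 4 alternatives chosen after the data were seen, and its replicate mean of 1.37 from 1.29 to 1.46 without each replicate. The X share was 31.2% among peaks supported by all 3 and 29.8% beyond 1000 bp of a TSS. Depth is unknown, so nothing can be said of sites too weakly covered to be called.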
